A study of Mus musculus with 140 samples.

Results

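Peritubular capillaries and post-capillary venules of the healthy mouse kidney were compared by their microRNAs (miRNAs), with 4 libraries of each from the same 4 mice. These 8 libraries were chosen by their labels, as healthy control mice sampled at 0 h, and belong to a series of 140 small RNA libraries. The mice were male, wild-type and of the strain C57BL6/OlaHsd, and both vessel types were cut from kidney by laser microdissection. The 24 other mice of the series had a sham operation or cecal ligation and puncture (CLP), a model of abdominal sepsis, with sampling 4 h, 24 h or 72 h later. They gave the same vessel types and serve here as a second set in which to look at the same comparison. Mice are numbered 1 to 4 by the replicate number in the labels.

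Blood leaves the glomerulus through an arteriole, runs through the peritubular capillaries, which are wrapped around the tubules and take back what the tubules reabsorb, and is collected by post-capillary venules, where leukocytes leave the blood in inflammation. A miRNA is a short RNA that guides a silencing complex to messenger RNAs, mainly through its seed, the bases near its 5′ end, so miRNAs that share a seed share many targets. Some miRNAs are known mainly from 1 cell type, such as miR-126 from endothelium, miR-143 and miR-145 from smooth muscle, miR-192 from tubule epithelium, and miR-451 and miR-486 from red blood cells.

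The sequences that carry the comparison are printed from RefSeq (GRCm38.p6), 5′ to 3′, with the seed (bases 2 to 8) in capitals. The first pair was higher in capillaries and has 1 seed. Counted from 1 at the 5′ end of miR-103-3p, miR-107-3p differs from it by G22C.
miR-107-3p: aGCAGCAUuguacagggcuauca
miR-103-3p: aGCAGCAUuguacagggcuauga
The next pair was lower in capillaries and also has 1 seed. Counted from the 5′ end of miR-99a-5p, miR-100-5p differs from it by U16A.
miR-99a-5p: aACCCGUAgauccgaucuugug
miR-100-5p: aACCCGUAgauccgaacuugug
The red-cell miRNAs miR-144-3p and miR-451a, made from neighbouring genes, and the endothelial miR-126a-3p were lower in capillaries and have unrelated seeds.
miR-144-3p: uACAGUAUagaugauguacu
miR-451a: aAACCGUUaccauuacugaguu
miR-126a-3p: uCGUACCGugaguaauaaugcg
The 2 members of the miR-30 family that were higher in healthy capillaries come from opposite arms of their hairpins and have different seeds.
miR-30a-3p: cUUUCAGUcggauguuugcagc
miR-30c-5p: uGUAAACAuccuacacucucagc
The last set holds the 2 called entries with the largest log2 fold changes toward capillaries and miR-330-3p, which was lower there although it has the seed of miR-6240.
miR-6240: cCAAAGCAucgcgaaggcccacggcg
miR-2137: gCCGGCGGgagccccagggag
miR-330-3p: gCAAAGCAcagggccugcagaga
miR-107-3p lies on chromosome 19 in an intron of Pank1, and both genes of miR-103-3p lie in introns of the related Pank2 (chromosome 2) and Pank3 (chromosome 11). miR-126a-3p lies on chromosome 2 in Egfl7, and miR-144-3p and miR-451a lie on chromosome 11 outside any annotated host.

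The capillary libraries were shallow. Their miRNA counts were 14030, 15246, 11374 and 4215 in mice 1 to 4, against 52181, 77366, 21795 and 35721 in the venule libraries. Each mouse had fewer in capillaries, and the exact permutation test over the 4 pairs (two-sided) gave p = 0.125, the smallest that 4 pairs allow. Entries of the count table that name no miRNA took 99.4% to 99.7% of all counts in capillaries and 98.5% to 99.2% in venules. A miRNA count was seen for 155 to 198 miRNAs per capillary library and for 247 to 291 per venule library. A count of 0 allows up to 132 to 481 CPM (counts scaled to a common miRNA total per library) in a capillary library, and up to 29.8 to 91.7 CPM in a venule library (3 counts, counting error only). The part of this depth difference in the results was not tested.

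Of 383 miRNAs tested, 40 (10.4%) differed between capillaries and venules at an edgeR adjusted p under 0.05. Of these, 11 (2.87% of those tested) were higher in capillaries and 29 (7.57%) were lower. The median log2 fold change, capillaries over venules, was -0.27 over all 383, and 122 of them had no count in any capillary library, against 44 in venules. With miRNAs at 0 in 1 vessel type set at the bound that a floor of 3 counts per group gives, and 88 that give no bound left out, the median was -0.13. All 4 capillary libraries lay above all 4 venule libraries for 18 miRNAs (4.7%) and below for 37 (9.66%). Among the called ones this held for 9 of the 11 higher and 23 of the 29 lower. With plain totals in place of TMM scaling, 12 were higher and 20 lower.

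miR-107-3p, which with miR-103-3p is known as a brake on insulin signalling, was higher in the capillaries of all 4 mice. In miR-107-3p, the capillary libraries of mice 1 to 4 held 28028, 24984, 25117 and 22109 CPM and the venule libraries 8135, 7039.7, 7399.7 and 8809.5 CPM. The lowest capillary value lay above the highest venule value. The means were 25059 ± 2417 CPM and 7846 ± 788 CPM (SD, n = 4), a log2 fold change of 1.68 (edgeR adjusted p = 1.2e-08, SE 0.228), and the call held in each alternative analysis. In miR-103-3p, the capillary libraries of mice 1 to 4 held 27025, 25249, 26056 and 26434 CPM and the venule libraries 17870.4, 16641, 14799 and 16044 CPM. Here too the groups did not overlap, with a log2 fold change of 0.68 (edgeR adjusted p = 0.00921, SE 0.189). The call of miR-103-3p was lost without mouse 1 (edgeR adjusted p = 0.111), without mouse 3 (0.0772) and without mouse 4 (0.102).

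The members of this pair differed unequally between the vessel types. The ratio of miR-107-3p to miR-103-3p counts within a library, in which scaling cancels, was 1.04, 0.99, 0.964 and 0.836 in capillaries of mice 1 to 4 and 0.455, 0.423, 0.5 and 0.549 in venules. The groups did not overlap. The ratio was 0.256 ± 0.066 (SD, n = 4) in arterioles. Glomeruli had 0.277 ± 0.0422 and whole kidney 0.713 ± 0.0292, all below the capillary mean. In the 24 other mice it was higher in capillaries than in venules in 23, with medians of 0.601 and 0.435. The 2 miRNAs differ by 1 base near the 3′ end, so reads that end early fit both, and no source used here gives how such reads were counted.

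**Figure D1:**
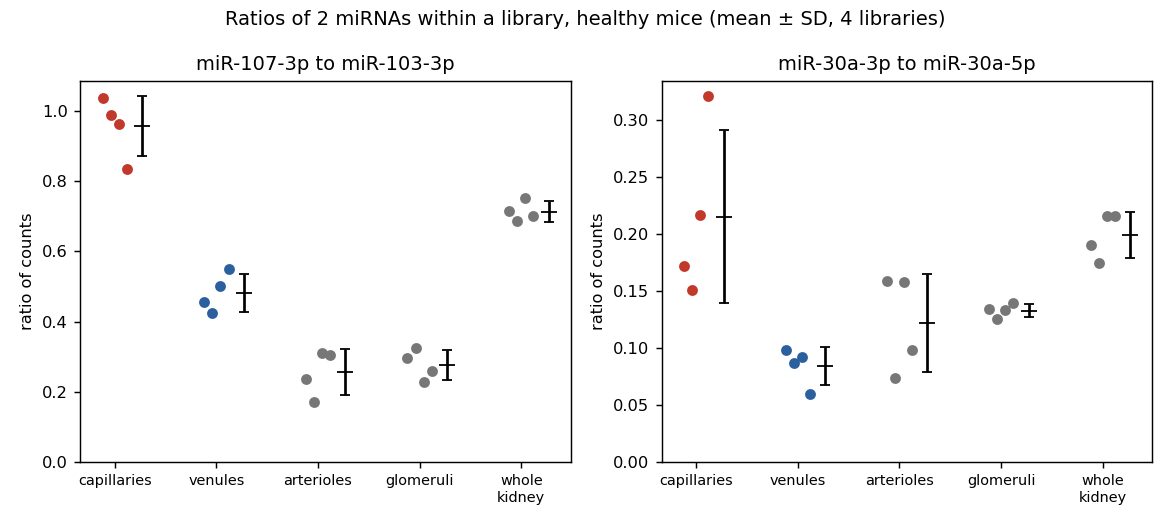
Ratio of counts of 2 miRNAs within each library (vertical axis, no unit) for the 5 healthy compartments, 4 libraries each, with mean ± SD as black bars. The capillary points of miR-107-3p to miR-103-3p lie between 0.836 and 1.04, above all points of the other compartments. The capillary points of miR-30a-3p to miR-30a-5p lie above the venule points and overlap those of whole kidney.

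miR-22-3p and miR-378a-3p, both abundant and tied to energy metabolism in muscle and liver, were also higher in capillaries. In miR-22-3p, the capillary libraries of mice 1 to 4 held 23716, 22777, 24239.7 and 20827 CPM and the venule libraries 15840.3, 10624, 12506 and 10613 CPM. In miR-378a-3p, the capillary libraries of mice 1 to 4 held 39459.8, 29663, 37079.9 and 31882 CPM and the venule libraries 20626, 17564, 17001 and 21392 CPM. Neither overlapped between groups. The log2 fold changes were 0.90 (edgeR adjusted p = 0.00301, SE 0.223) and 0.85 (edgeR adjusted p = 0.0032, SE 0.214). The call of miR-22-3p was lost without mouse 4 (edgeR adjusted p = 0.0833). The call of miR-378a-3p was lost without mouse 1 (edgeR adjusted p = 0.0893) and without mouse 3 (0.0523). Of 5 tested members of the miR-378 family, miR-378a-3p was the 1 that passed the test. The family took 4.78% to 6.28% of miRNA counts in capillaries and 2.49% to 3.21% in venules. Its mean was 5.06% in whole kidney, near the capillary level, 0.749% in arterioles and 1.42% in glomeruli.

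The miR-30 family, abundant in kidney epithelium and podocytes, had 2 of 11 tested members higher and 0 lower. Of all 383 tested, 2.87% were higher and 7.57% lower. The family median log2 fold change was 0.26 against -0.27 over all 383, or 0.42 against -0.13 with the bounds used above. In miR-30a-3p, the capillary libraries of mice 1 to 4 held 2908, 2560.2, 3570.2 and 4165 CPM and the venule libraries 1645, 1539, 1254 and 974 CPM. The groups did not overlap, and the log2 fold change was 1.28 (edgeR adjusted p = 0.000528, SE 0.277). In miR-30c-5p, the capillary libraries of mice 1 to 4 held 3459.6, 5120.4, 3194 and 6569 CPM and the venule libraries 2400.5, 2582, 1376 and 1824 CPM. These did not overlap either, and the log2 fold change was 1.19 (edgeR adjusted p = 0.0169, SE 0.353). The call of miR-30a-3p was lost with no filter on low counts (edgeR adjusted p = 0.0609) and without mouse 4 (0.0931). The call of miR-30c-5p was lost with no filter on low counts (edgeR adjusted p = 0.117), without mouse 3 (0.0523) and without mouse 4 (0.229). miR-30a-5p, the far more abundant arm of the miR-30a hairpin, had a log2 fold change of -0.03 (edgeR adjusted p = 1, SE 0.19) and overlapped between groups. The ratio of miR-30a-3p to miR-30a-5p was therefore 0.172, 0.151, 0.217 and 0.321 in capillaries against 0.098, 0.0862, 0.0915 and 0.0599 in venules, without overlap. The whole family took 4.38% to 4.61% of miRNA counts in capillaries, 3.37% to 3.99% in venules and a mean of 8.54% in whole kidney.

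Among the called miRNAs, the largest log2 fold changes toward capillaries belonged to little described entries of the miRNA catalogue. In miR-6240, the capillary libraries of mice 1 to 4 held 46178, 17215, 59754 and 78983 CPM and the venule libraries 859, 377, 795 and 684 CPM. In miR-2137, the capillary libraries of mice 1 to 4 held 6969, 4988, 9082 and 13297 CPM and the venule libraries 193, 218, 306 and 124 CPM. Capillary libraries stood above all venule libraries for both, and of the capillary libraries that of mouse 4, with the fewest miRNA counts, held the highest value for each. The log2 fold changes were 6.09 (edgeR adjusted p = 1.2e-08, SE 0.825) and 5.32 (edgeR adjusted p = 2.2e-06, SE 0.878). miR-5099 held 24368, 28338, 20858 and 24512 CPM in capillaries and 9039, 9333, 15380.4 and 10074 CPM in venules, without overlap, with a log2 fold change of 1.23 (edgeR adjusted p = 0.0374, SE 0.406). miR-5106 and miR-5124a overlapped between groups, with log2 fold changes of 2.67 (edgeR adjusted p = 0.0458, SE 0.91) and 2.63 (edgeR adjusted p = 0.0489, SE 0.912). miR-5124a rested on mouse 1, whose capillary library held 12485 CPM against 376 to 927 CPM in the other 3. Without that mouse its log2 fold change was 0.56 (edgeR adjusted p = 0.853). The call of miR-5124a was also lost with no filter on low counts (edgeR adjusted p = 0.168), in the 16 healthy microdissected libraries alone (0.0725), in the 8 compared libraries alone (0.137) and without mouse 2 (0.108). The call of miR-5099 was lost with no replicate block (edgeR adjusted p = 0.0604), without mouse 1 (0.228), without mouse 2 (0.201) and without mouse 4 (0.158). The call of miR-5106 was lost with no filter on low counts (edgeR adjusted p = 0.0915), without mouse 1 (0.303), without mouse 2 (0.164) and without mouse 4 (0.183). Without mouse 3 the log2 fold change of miR-5106 was 3.295 (edgeR adjusted p = 0.0304). Without mouse 3 the log2 fold change of miR-5124a was 3.25 (edgeR adjusted p = 0.0353). Without mouse 4 the log2 fold change of miR-5124a was 3.46 (edgeR adjusted p = 0.016).

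A list of 15 such entries, chosen with earlier results of these data known and without miR-2137, had 4 of 11 tested members higher and 0 lower in edgeR (6 at an unadjusted p under 0.05; DESeq2 called 6 higher and 1 lower), with a median log2 fold change of 1.77 against -0.27 over all 383 tested. With the same bounds the medians were 2.63 and -0.13. Of all 383 tested, edgeR called 2.87% higher and 7.57% lower. The summed share of the list was 7.76% to 16.6% of miRNA counts in capillaries, 1.43% to 3.32% in venules and a mean of 0.145% in whole kidney. What RNA these entries stand for, and the part of low miRNA counts in their level, were not tested. With them left out of the fit, 36 miRNAs were called, 7 higher and 29 lower.

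miRNAs of red blood cells were lower in capillaries than in venules. In miR-486a-5p, the capillary libraries of mice 1 to 4 held 6067, 4502, 1816 and 3685 CPM and the venule libraries 51299.5, 59028, 27458 and 55262 CPM. Each venule library lay above every capillary library. The means were 4018 ± 1769 CPM and 48262 ± 14224 CPM (SD, n = 4), and the log2 fold change was -3.61 (edgeR adjusted p = 1.87e-10, SE 0.424), a call that held in each alternative analysis. miR-486b-5p, a near-identical copy whose reads could not be told apart (copy ratio 0.997 to 1 by mean), gave -3.60 and is no separate evidence. In miR-451a, the capillary libraries of mice 1 to 4 held 4312, 927, 1503 and 2083 CPM and the venule libraries 11809.8, 22459.5, 6758 and 20293 CPM. These did not overlap, with a log2 fold change of -2.69 (edgeR adjusted p = 0.000195, SE 0.549), a call that also held throughout. Without mouse 1 the log2 fold change of miR-451a was -3.42 (edgeR adjusted p = 7.74e-05). miR-451a is matured by Ago2 without Dicer and drives red cell maturation together with miR-144.

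miR-144-3p had no count in any capillary library, against 46, 100, 31 and 60 counts in the venule libraries of mice 1 to 4. Set against a floor of 3 counts over the 4 capillary libraries, venules were at least 20.9-fold higher (edgeR adjusted p = 1.78e-05). miR-486a-3p was likewise at 0 in capillaries and had 68, 53, 24 and 47 counts in venules, at least 17.5-fold higher (edgeR adjusted p = 0.00104). miR-144-5p had 2, 0, 2 and 0 counts in capillaries and 40, 85, 23 and 43 in venules, with a log2 fold change of -3.60 (edgeR adjusted p = 0.0108, SE 1.02). These red-cell miRNAs were thus at or near the counting limit in capillaries and above it in every venule library. The call of miR-144-5p was lost with no filter on low counts (edgeR adjusted p = 0.0691) and without mouse 2 (0.103). By summed counts its venules were 12.4-fold higher. Without mouse 1 it was 18.6-fold (95% exact counting interval 5.07 to 155.4, 2 capillary counts). Without mouse 2 it was 7.53-fold (95% exact counting interval 2.85 to 28.13, 4 capillary counts). Without mouse 3 it was 18.9-fold (95% exact counting interval 5.17 to 157.8, 2 capillary counts). Leaving out 1 mouse in turn, the bounds were at least 13.5 to 17.1-fold for miR-144-3p and 11.1 to 14.8-fold for miR-486a-3p, lowest without mouse 2 and mouse 1.

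In all, 6 of 7 tested members of the erythroid list were lower in capillaries and 0 higher, where 7.57% of all 383 tested were lower. The median log2 fold change of the list was -3.61, or -3.60 with the 3 at 0 in capillaries set at their bound. Over all 383 tested these medians were -0.27 and -0.13. The erythroid list took 0.739% to 2.35% of miRNA counts in capillaries, 9.62% to 18.6% in venules, with means of 0.999% in whole kidney, 2.95% in arterioles and 3.46% in glomeruli. Both miR-486a-5p and its copy miR-486b-5p are among the 6 and in these shares, at means of 6.48% and 6.45% in venules. The count, the median and the shares thus hold the copy as a separate entry. Venules stood apart from the other compartments and capillaries were near whole kidney. The share of counts taken by red-cell miRNAs lowers the share left for all others, and its part in the other differences was not tested. In bulk samples such as these, fewer cells of a type and less RNA per cell cannot be told apart.

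**Figure D2:**
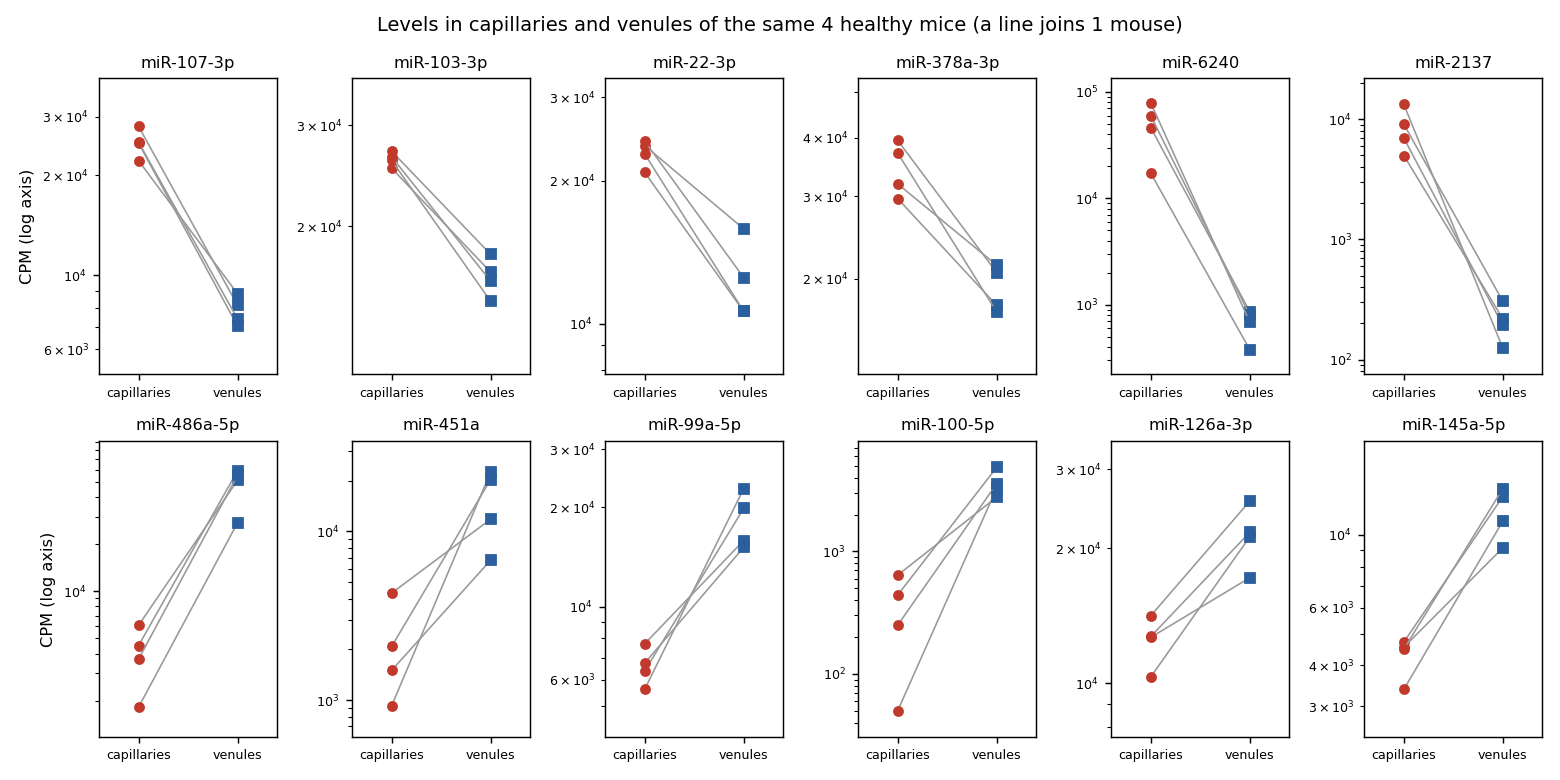
CPM (log axes, a scale for each panel) of 12 called miRNAs in capillaries (red circles) and venules (blue squares), with a line joining the 2 libraries of a mouse. The upper row holds 6 miRNAs higher in capillaries and the lower row 6 that were lower, and in each panel the 4 lines run the same way.

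The miR-99/100 and miR-125 families, made from shared clusters and known as brakes on growth signalling, had 4 members that were lower in capillaries. In miR-99a-5p, the capillary libraries of mice 1 to 4 held 6368, 5606, 7704 and 6729 CPM and the venule libraries 19871, 22807, 15869.6 and 15132 CPM. The groups did not overlap, and the log2 fold change was -1.49 (edgeR adjusted p = 6.76e-09, SE 0.196). miR-100-5p had 1, 10, 4 and 4 counts in capillaries and 222, 490, 117 and 134 in venules, which is 50.1, 441, 251 and 641 CPM and 3289.6, 4865, 3578 and 2778 CPM. It was close to the counting limit in capillaries, and its log2 fold change was -3.60 (edgeR adjusted p = 2.05e-07, SE 0.54). Both calls held in each alternative analysis. miR-99b-5p, the third tested miRNA with this seed, had a log2 fold change of -0.66 (edgeR adjusted p = 0.424, SE 0.422) and did not pass the test.

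miR-125a-5p held 9577, 10682, 7704 and 9933 CPM in capillaries and 14640.1, 16839.6, 15992 and 21454 CPM in venules, a log2 fold change of -0.88 (edgeR adjusted p = 0.00614, SE 0.232) that held throughout. miR-125b-5p overlapped between groups and had a log2 fold change of -0.94 (edgeR adjusted p = 0.0267, SE 0.297). The call of miR-125b-5p was lost with plain miRNA totals (edgeR adjusted p = 0.0579), with no filter on low counts (0.0632), without mouse 1 (0.0853) and without mouse 2 (0.328). miR-351-5p, the third tested miRNA with the miR-125 seed, had -0.24 (edgeR adjusted p = 0.923, SE 0.708). Over these families 4 of 10 tested members were lower and 0 higher, with a median of -0.91 against -0.27 over all 383 tested. Of those 383, 7.57% were lower. The families took 2.99% to 3.7% of miRNA counts in capillaries and 6.48% to 6.92% in venules, so the libraries were close to each other within a vessel type.

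miRNAs known from endothelium were counted in every library, and 3 were lower in capillaries. miR-126a-3p, which keeps vessels intact and sits in the endothelial gene Egfl7, held 14139, 12713, 10335 and 12656 CPM in capillaries and 25457, 21695, 21190 and 17184 CPM in venules. The groups did not overlap, and the log2 fold change was -0.78 (edgeR adjusted p = 0.000854, SE 0.174). Its other arm, miR-126a-5p, overlapped between groups, at 1772 ± 1507 CPM against 3479.6 ± 715 CPM (SD, n = 4), with a log2 fold change of -1.001 (edgeR adjusted p = 0.0203, SE 0.303). miR-23a-3p, of a cluster active in endothelium, held 5916, 3178, 5888 and 6408 CPM against 9646, 7159, 7736 and 8333 CPM without overlap, with -0.65 (edgeR adjusted p = 0.0267, SE 0.205). The call of miR-126a-5p was lost with plain miRNA totals (edgeR adjusted p = 0.0504), with no filter on low counts (0.0691), in the 16 healthy microdissected libraries alone (0.0717), in the 8 compared libraries alone (0.0702), without mouse 1 (0.132), without mouse 2 (0.0965) and without mouse 4 (0.17). Without mouse 3 the log2 fold change of miR-126a-5p was -1.79 (edgeR adjusted p = 3.78e-05). The call of miR-23a-3p was lost with plain miRNA totals (edgeR adjusted p = 0.0902), with no filter on low counts (0.152) and without mouse 2 (0.237). Of 9 tested endothelial miRNAs 3 were lower and 0 higher, where 7.57% of all 383 tested were lower. Their median was -0.42, near the -0.27 over all 383. Their summed share was 8.15% to 8.9% in capillaries and 9.9% to 11% in venules, so endothelial markers were found under both labels. By mean share, capillaries (8.58%) lay below whole kidney (11.3%), venules (10.5%), arterioles (9.66%) and glomeruli (22.3%). The capillary libraries were thus not enriched for this list over whole kidney, and the cause was not tested.

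miR-143-3p and miR-145a-5p, neighbours on 1 transcript that hold smooth muscle in its contractile state, followed the same direction. In miR-145a-5p, the capillary libraries of mice 1 to 4 held 4713, 4547, 3382 and 4486 CPM and the venule libraries 13069, 9125, 11008 and 13826 CPM. In miR-143-3p, the capillary libraries of mice 1 to 4 held 27075, 25028, 29877 and 15219.8 CPM and the venule libraries 61628, 47619.7, 47395 and 30616 CPM. Neither overlapped between groups. The log2 fold changes were -1.47 (edgeR adjusted p = 1.88e-06, SE 0.239) and -0.94 (edgeR adjusted p = 0.00159, SE 0.221), and both calls held in each alternative analysis. miR-143-5p, with 4, 0, 1 and 0 counts in capillaries, had -2.56 (edgeR adjusted p = 0.0458, SE 0.879). The call of miR-143-5p was lost with plain miRNA totals (edgeR adjusted p = 0.0541), without mouse 1 (0.0751), without mouse 2 (0.121), without mouse 3 (0.118) and without mouse 4 (0.0992), and it was not tested with the filter set on the 8 compared libraries or in the 8 compared libraries alone, for its low counts. By summed counts its venules were 5.31-fold higher. Without mouse 1 it was 10.4-fold (95% exact counting interval 1.76 to 419.3, 1 capillary count). In arterioles of the same mice, vessels with a muscle coat, the smooth muscle list took a mean of 50.3% of miRNA counts. It took 2.99% to 4.75% in capillaries and 6.13% to 9.85% in venules, and 3 of its 4 tested members were lower in capillaries. Its median log2 fold change was -1.29, against -0.27 over all 383 tested, of which 7.57% were lower.

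miR-214-3p, which comes from Dnm3os and is known from mesenchymal cells and fibrosis, held 953, 1722, 689 and 641 CPM in capillaries and 2415, 2909, 2997 and 2819 CPM in venules. The groups did not overlap, and its log2 fold change was -1.56 (edgeR adjusted p = 0.021, SE 0.476). The call of miR-214-3p was lost with plain miRNA totals (edgeR adjusted p = 0.0504), with no filter on low counts (0.0691), without mouse 3 (0.108) and without mouse 4 (0.0833). It was the 1 called by edgeR of 5 tested mesenchymal members, of which DESeq2 called 2 lower. Its cluster partner miR-199a-3p had -1.42 (edgeR adjusted p = 0.284, SE 0.781) and did not pass.

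Leukocyte miRNAs were scarce in both vessel types. miR-142a-3p, made in all blood leukocytes, had 0, 0, 0 and 1 counts in capillaries and 46, 2, 16 and 21 in venules. The groups overlapped in CPM, and venules were 22.1-fold higher (95% exact counting interval 3.86 to 883) (edgeR adjusted p = 0.0405). The call of miR-142a-3p was lost with plain miRNA totals (edgeR adjusted p = 0.0519), with no filter on low counts (0.168), in the 16 healthy microdissected libraries alone (0.0837), without mouse 1 (0.256), without mouse 2 (0.0762) and without mouse 3 (0.173), and it was not tested with the filter set on the 8 compared libraries or in the 8 compared libraries alone, for its low counts. Without mouse 1 the ratio for miR-142a-3p was 9.63-fold (95% exact counting interval 1.63 to 390, 1 capillary count). Without mouse 4 no capillary count of miR-142a-3p was left, and venules were at least 7.75-fold higher. miR-342-3p, which lies in an intron of Evl, had 25, 24, 2 and 1 counts in capillaries, 124, 179, 67 and 115 in venules and a log2 fold change of -1.74 (edgeR adjusted p = 0.0265, SE 0.549). The call of miR-342-3p was lost with plain miRNA totals (edgeR adjusted p = 0.0651), with no filter on low counts (0.0691), in the 16 healthy microdissected libraries alone (0.0528), in the 8 compared libraries alone (0.0618), without mouse 3 (0.16) and without mouse 4 (0.164). Without mouse 1 the log2 fold change of miR-342-3p was -2.49 (edgeR adjusted p = 0.00852). The lymphocyte miRNA miR-150-5p and the myeloid miR-223-3p had log2 fold changes of -1.93 (edgeR adjusted p = 0.0629, SE 0.7) and -2.49 (edgeR adjusted p = 0.426, SE 1.62) and were not called. miR-150-5p was called lower with DESeq2 (adjusted p = 0.0141), and in edgeR with the filter set on the 8 compared libraries (adjusted p = 0.0366). Without mouse 3 the log2 fold change of miR-150-5p was -3.42 (edgeR adjusted p = 0.00882). Of the 5 tested leukocyte members 1 was lower in edgeR and 2 in DESeq2, and their summed share was 0% to 0.237% in capillaries and 0.191% to 0.372% in venules.

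The miRNAs known from tubules held no member that passed the edgeR test, and their summed share was larger in every capillary library than in any venule library. miR-192-5p held 3760.5, 4193, 4948 and 5607 CPM in capillaries and 2845, 2333, 2324 and 2322 CPM in venules, which did not overlap, but its log2 fold change was 0.87 (edgeR adjusted p = 0.222, SE 0.443). In miR-204-5p, with 6, 11, 4 and 5 counts in capillaries, the log2 fold change was 1.67 (edgeR adjusted p = 0.351, SE 0.991). The tubular list had 0 of 7 tested members called by edgeR, 1 at an unadjusted p under 0.05, and 1 called by DESeq2 as higher in capillaries. Its summed share was 0.706% to 1.02% in capillaries, 0.371% to 0.458% in venules and 0.927% on average in whole kidney, so capillaries held a share close to that of the tubule-rich organ.

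For the miR-200 family, known from epithelium, 0 of 8 tested members were called by edgeR, 2 had an unadjusted p under 0.05, and DESeq2 called 1 as higher in capillaries. miR-200b-3p had 1.25 (edgeR adjusted p = 0.142, SE 0.54) and miR-429-3p had 0.97 (edgeR adjusted p = 0.151, SE 0.428), both without overlap between groups. With the filter set on the 8 compared libraries both passed (edgeR adjusted p = 0.0472 for each), and in those 8 libraries alone miR-429-3p did (0.043). The family took 1.19% to 1.54% in capillaries, 0.717% to 1.12% in venules and 1.74% in whole kidney. The part of tubule RNA in the capillary libraries was not tested.

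**Figure D3:**
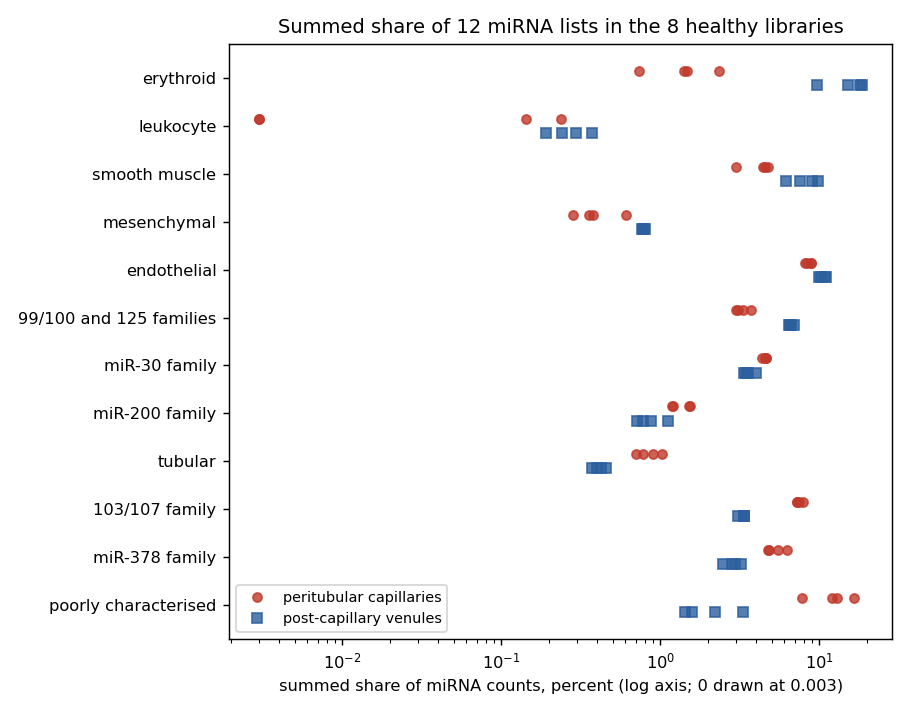
Summed share of miRNA counts (horizontal, percent, log axis) of 12 miRNA lists in the 4 capillary (red circles) and 4 venule (blue squares) libraries of healthy mice. Groups do not overlap in 11 of the lists, and the leukocyte list is at 0 in 2 capillary libraries, drawn at 0.003.

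Of the other seed families, miR-497a-5p and miR-195a-5p, made from 1 cluster and known for slowing the cell cycle, were the called members of the miR-15/16 group. miR-497a-5p held 602, 265, 1629 and 320.4 CPM in capillaries and 2712, 1231, 1651 and 3130 CPM in venules. Its groups overlapped, and its log2 fold change was -1.61 (edgeR adjusted p = 0.00159, SE 0.38), a call that held throughout. Without mouse 3 the log2 fold change of miR-497a-5p was -2.49 (edgeR adjusted p = 1.01e-05). The capillary library of that mouse was the highest of the 4. miR-195a-5p had 0, 0, 1 and 0 counts in capillaries and 16, 25, 6 and 12 in venules, where the level was 15.3-fold that of capillaries (95% exact counting interval 2.65 to 616) (edgeR adjusted p = 0.0265). The call of miR-195a-5p was lost with no filter on low counts (edgeR adjusted p = 0.103), without mouse 1 (0.0908), without mouse 2 (0.17) and without mouse 4 (0.0787), and it was not tested with the filter set on the 8 compared libraries or in the 8 compared libraries alone, for its low counts. Without mouse 2 the ratio for miR-195a-5p was 9.65-fold (95% exact counting interval 1.62 to 392.4, 1 capillary count). Without mouse 3 no capillary count of miR-195a-5p was left, and venules were at least 3.98-fold higher. miR-16-5p, the most abundant member, had -0.19 (edgeR adjusted p = 0.629, SE 0.192). Thus 2 of 6 tested members of the group were lower in edgeR (DESeq2 called 2 lower and 1 higher) and the most abundant did not pass. Of all 383 tested, 7.57% were lower in edgeR.

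let-7i-5p was the 1 called member of 10 tested in the let-7 family, which slows growth in differentiated cells. It held 6418, 5650, 3633 and 1442 CPM in capillaries and 7157, 10416, 7124 and 8374 CPM in venules, without overlap, with a log2 fold change of -0.99 (edgeR adjusted p = 0.0212, SE 0.303). The call of let-7i-5p was lost without mouse 2 (edgeR adjusted p = 0.0617), without mouse 3 (0.0522) and without mouse 4 (0.158). The more abundant let-7f-5p had a log2 fold change of 0.50 (edgeR adjusted p = 0.257). In the 8 compared libraries alone it passed as higher in capillaries (edgeR adjusted p = 0.043). Of the 10 tested let-7 members 5 had a log2 fold change above 0, and the family median was 0.04. miR-181c-5p, of a family known from lymphocyte development, had 0, 5, 6 and 0 counts in capillaries and 63, 81, 24 and 46 in venules, with -2.44 (edgeR adjusted p = 0.0361, SE 0.804). The call of miR-181c-5p was lost with plain miRNA totals (edgeR adjusted p = 0.0541), with no filter on low counts (0.0861), in the 8 compared libraries alone (0.0946), without mouse 1 (0.226), without mouse 2 (0.0723) and without mouse 4 (0.102). Without mouse 3 the log2 fold change of miR-181c-5p was -3.25 (edgeR adjusted p = 0.0265). The abundant miR-181a-5p had -0.22 (edgeR adjusted p = 0.535, SE 0.192). In both families, then, the members called were not the most abundant ones.

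miR-652-3p, from an intron of Tmem164, held 1955, 1942, 626 and 961 CPM in capillaries and 2978, 3356, 2446 and 3275 CPM in venules, without overlap, and had -1.17 (edgeR adjusted p = 0.0072, SE 0.314). The call of miR-652-3p was lost with no filter on low counts (edgeR adjusted p = 0.058) and without mouse 3 (0.0639). 5 further lower miRNAs were at or near 0 in capillaries. miR-330-3p and miR-296-5p had no capillary count, and venules were at least 6.6-fold and 7.88-fold higher (edgeR adjusted p = 0.0032 and 0.00921). miR-127-3p, of the imprinted Dlk1-Dio3 cluster, also had none, with venules at least 3.56-fold higher (edgeR adjusted p = 0.0458). The other members of that cluster are hard to compare, since 10 of its 11 tested members were at 0 in all capillary libraries. miR-106b-3p had 0, 1, 0 and 0 counts in capillaries and 29, 56, 14 and 8 in venules, where the level was 27.8-fold that of capillaries (95% exact counting interval 4.89 to 1109) (edgeR adjusted p = 0.0093). miR-532-5p had 0, 0, 1 and 3 counts in capillaries and 48, 39, 47 and 38 in venules, a log2 fold change of -3.46 (edgeR adjusted p = 0.0185, SE 1.03). With the filter set on the 8 compared libraries, or with these alone, miR-330-3p, miR-296-5p, miR-127-3p and miR-106b-3p had too few counts to be tested. The call of miR-296-5p was lost without mouse 2 (edgeR adjusted p = 0.0617). The call of miR-127-3p was lost with plain miRNA totals (edgeR adjusted p = 0.0542), with no filter on low counts (0.058), without mouse 1 (0.102), without mouse 2 (0.288) and without mouse 3 (0.109). The call of miR-106b-3p was lost without mouse 1 (edgeR adjusted p = 0.0587). The call of miR-532-5p was lost with no filter on low counts (edgeR adjusted p = 0.0609), in the 8 compared libraries alone (0.0554), without mouse 1 (0.0906), without mouse 2 (0.103) and without mouse 3 (0.106). By summed counts its venules were 11.2-fold higher. Without mouse 4 it was 39.1-fold (95% exact counting interval 6.89 to 1554, 1 capillary count). Without mouse 2 no capillary count of miR-106b-3p was left, and venules were at least 4.79-fold higher. Leaving out 1 mouse in turn, the bounds were at least 3.51 to 5.97-fold for miR-330-3p, 4.93 to 6.66-fold for miR-296-5p and 1.37 to 4.16-fold for miR-127-3p, lowest without mouse 4 for miR-330-3p and without mouse 2 for the other pair.

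The same comparison was made in the 24 other mice, as the mean of capillaries minus venules over the 6 sham and CLP groups. There 151 of the 383 miRNAs were called (39.4%), 24 higher (6.27%) and 127 lower (33.2%), in 6 times as many mice. With plain totals in place of TMM scaling the split was 50 higher and 70 lower. Of the 11 miRNAs higher in healthy capillaries, 9 were called higher there (81.8% of the healthy calls, 37.5% of the calls in other mice). Of the 29 lower, 28 were called lower there (96.6% and 22%). miR-30a-3p, miR-30c-5p and miR-330-3p were not called in the other mice.

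miR-107-3p was higher in capillaries in 22 of the 24 other mice, with a log2 fold change of 0.81 (edgeR adjusted p = 3.88e-12, SE 0.091). miR-486a-5p was lower in all 24, with -3.42 (edgeR adjusted p = 3.18e-30, SE 0.171), and miR-99a-5p and miR-100-5p were lower in all 24 as well. Venule libraries of these mice thus held more of the red-cell miRNA miR-486a-5p in every case. miR-6240 was higher in 23 of 24, with 3.89 (edgeR adjusted p = 2.34e-17, SE 0.326), and miR-2137 in 23, with 2.45 (edgeR adjusted p = 5.84e-09, SE 0.34). miR-192-5p, not called in healthy mice, was higher in 19 of 24, with 0.72 (edgeR adjusted p = 0.000848, SE 0.179). Its difference between healthy and other mice was 0.16 (edgeR adjusted p = 1, SE 0.475), which did not pass. miR-192-5p was the 1 of 7 tested tubular members called higher in the other mice, where 2 were called lower.

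**Figure D4:**
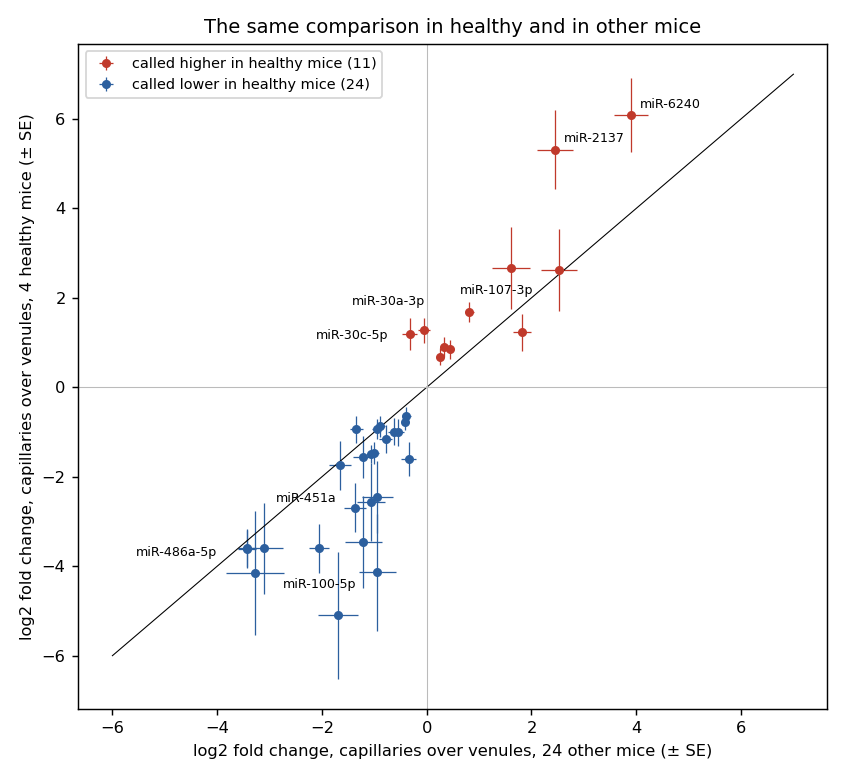
Log2 fold change, capillaries over venules, in the 4 healthy mice (vertical) against the 24 other mice (horizontal), with standard errors, for the 35 called miRNAs that had counts in both healthy groups. The line marks equal values. Points other than miR-30a-3p and miR-30c-5p lie on the same side of 0 in both sets.

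The difference between healthy and other mice was itself tested, and 2 of 383 miRNAs (0.522%) passed, both of the miR-30 family. For miR-30a-3p the log2 fold change was 1.28 in healthy mice and -0.05 in the others, a difference of 1.33 (edgeR adjusted p = 0.0101, SE 0.297). In the other mice capillaries were above venules in 11 of 24. For miR-30c-5p the values were 1.19 and -0.33, a difference of 1.52 (edgeR adjusted p = 0.0268, SE 0.38), with capillaries above venules in 7 of 24. The healthy mice and the 4 h mice share a style of column name that the later mice lack, so the difference was also taken against the 8 mice of 4 h alone. It was then 1.41 (edgeR adjusted p = 0.0221, SE 0.337) for miR-30a-3p and 1.37 (edgeR adjusted p = 0.197, SE 0.43) for miR-30c-5p. Without mouse 4, 0 miRNAs passed in edgeR (33 at an unadjusted p under 0.05), and without mouse 1 or mouse 2, 1 passed. With plain totals 0 passed (31 at an unadjusted p under 0.05), and DESeq2 called 23. Whether the operation, the time or the library set goes with this difference cannot be told apart by these groups.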

How the data were processed

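Small RNA libraries were made with a RealSeq kit, per the labels' protocols. FastQC 0.11.9, MultiQC 1.10, cutadapt 3.3, Bowtie 1.3.0 and the builds GRCm38.p6 and GRCm39 are named in the submitters' processing notes. For reads that fit several miRNAs, the sources used here do not give the counting rule. The authors deposited raw counts per mature miRNA and library. Entries whose names start with # name no miRNA (99.4% to 99.7% of counts in healthy capillaries, 98.5% to 99.2% in venules) and stayed out of library sizes and tests. The 0 unmatched columns mean that every column was tied to a sample by name.

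edgeR 4.0.16 (R 4.3.3, limma 3.58.1) was fitted to all 112 microdissected libraries of 28 mice, with the mouse as a block and each compartment against venules within each of 7 groups, which share 1 estimate of the spread. Scaling was TMM and the filter was filterByExpr (minimum count 10, minimum total 15). The quasi-likelihood F test was two-sided, with Benjamini-Hochberg adjustment over the 383 tested miRNAs and a threshold of 0.05. CPM values are TMM-scaled counts, and a log2 fold change states no amount per cell. The pairing comes from the labels, since both libraries of a pair are from 1 mouse. The deviations of paired libraries from their group means correlated by 0.102, 0.236, 0.0684 and -0.281 in mice 1 to 4 (104 miRNAs). The healthy replicates are separate mice, per the labels.

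Named miRNAs were the 11 called higher and, of those called lower, the 12 of smallest p. Called or leading members of 28 lists, and those called in the difference between healthy and other mice, were named as well. The members and lists were chosen with earlier results of these data known. The text also names the remaining called miRNAs. Alternatives were DESeq2 1.42.0, RLE size factors, plain totals, other filters and sample sets, no replicate block, the poorly characterised entries left out, and leaving out each mouse. The procedure was run on simulated counts with the same spread for every miRNA and no mouse effect. Pairing and unequal spread are therefore not covered by that simulation. Sequences and positions are from RefSeq, and hosts from GENCODE, on GRCm38.p6, where 324 of 383 tested miRNAs matched by name.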

Additional observations from a re-analysis of the deposited data

Results flagged for a closer look

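In each vessel type, 4 libraries were examined for a sample far from the other 3, and 19 of 150 sets of 4 had one. A rate of about 1 in 20 by chance holds for normally distributed values. Sets with a count in only 1 library are always flagged, so the 19 cannot be set against that rate. Beside a called miRNA, the far samples in capillaries on the high side were miR-5124a at 12485 CPM (249 counts) in mouse 1 against 376 to 927 CPM, miR-532-5p at 481 CPM (3 counts) in mouse 4 against 0 to 62.6 CPM, miR-142a-3p at 160.2 CPM (1 count) in mouse 4 against 0 CPM, miR-106b-3p at 44.1 CPM (1 count) in mouse 2 against 0 CPM and miR-195a-5p at 62.6 CPM (1 count) in mouse 3 against 0 CPM. All but the first rest on at most 3 counts. On the low side were miR-145a-5p at 3382 CPM (54 counts) in mouse 3 against 4486 to 4713 CPM and miR-23a-3p at 3178 CPM (72 counts) in mouse 2 against 5888 to 6408 CPM, neither of which reached the venule values. In venules the far samples were miR-5124a at 1430.2 CPM (69 counts) in mouse 4 against 179 to 356 CPM and miR-5099 at 15380 CPM (503 counts) in mouse 3 against 9039 to 10074 CPM.

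Among miRNAs not called, the far samples in capillaries were miR-322-5p at 1655 CPM (33 counts) in mouse 1 against 0 to 177 CPM, miR-322-3p at 1015 CPM (23 counts) in mouse 2 against 0 to 150.4 CPM, miR-142a-5p at 689 CPM (11 counts) in mouse 3 against 0 CPM, miR-133a-3p at 1442 CPM (9 counts) in mouse 4 against 0 to 62.6 CPM, miR-1a-3p at 44.1 CPM (1 count) in mouse 2 against 0 CPM and, on the low side, miR-30a-5p at 12977 CPM (81 counts) in mouse 4 against 16473 to 16950 CPM. In venules they were miR-192-5p at 2845 CPM (192 counts) in mouse 1 against 2322 to 2333 CPM, miR-199a-5p at 1783 CPM (86 counts) in mouse 4 against 673 to 745 CPM, miR-1a-3p at 124 CPM (6 counts) in mouse 4 against 0 CPM and, on the low side, miR-196a-5p at 2416 CPM (79 counts) in mouse 3 against 4488 to 4913 CPM. Mouse 4, whose capillary library was the shallowest, gave 4 of the 13 capillary values.

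The capillary to venule difference of miR-30a-3p and miR-30c-5p was larger in healthy mice than in the 24 other mice, by 1.33 and 1.52 on the log2 scale (edgeR adjusted p = 0.0101 and 0.0268). Against the 4 h mice alone the adjusted p-values were 0.0221 and 0.197.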

How the results depend on the processing

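Where they were tested, no direction turned among the 40 called miRNAs under 13 alternatives, and 14 of the 40 passed under every one. With the filter set on the 8 compared libraries, or in these alone, 7 of the 40 were not tested. With the poorly characterised entries left out, 4 were not tested. Those not tested are counted as not passing, and miR-6240 and miR-330-3p missed the 14 only for that reason. DESeq2 called 84 miRNAs in healthy mice (20 higher, 64 lower) and 40 higher in the other mice. With no filter on low counts 18 were lower, in the 8 compared libraries alone 19 were lower, and with the poorly characterised entries left out 7 were higher. The replicate is the mouse, and with no replicate block 45 were called (10 higher, 35 lower). Leaving out each mouse gave 27 to 36 calls, with 5 to 8 higher and 19 to 28 lower. In the other mice, the filter set on the 8 healthy libraries left 60 calls (35 lower), plain totals gave 50 higher and 70 lower, and the 4 h mice alone, a choice made after seeing the data, gave 70 (50 lower). The difference between healthy and other mice had 2 calls, against 23 with DESeq2, 5 with RLE size factors, 0 with plain totals (31 at an unadjusted p under 0.05), 4 with the filter on 8 libraries, 5 with no replicate block and 0 to 3 without 1 mouse. The cause of these shifts was not tested. The depth of the capillary libraries limits what can be seen, since 122 of 383 tested miRNAs had no count there.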

Other observations

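Arterioles and glomeruli of these mice set the called miRNAs in context. By mean CPM, capillaries were the highest of the 4 compartments for 10 of the 11 miRNAs higher than in venules, and the lowest of the 4 for 28 of the 29 lower. The call itself puts them above or below venules. Venules were the highest of the 4 for 10 of the 29. Whole kidney was left out of this ranking. By mean share of miRNA counts, on a log scale, it was nearer to capillaries than to venules for 6 of the 11 higher and 10 of the 29 lower. miR-486a-5p averaged 48262 ± 14224 CPM in venules (SD, n = 4), 20371 ± 16249 CPM in arterioles and 14797 ± 2917 CPM in glomeruli. miR-126a-3p was highest outside both, at 45980.5 ± 5467 CPM in arterioles and 45879.8 ± 5469 CPM in glomeruli.

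Several abundant groups had few or no calls. miR-26a-5p, the most abundant miRNA in both vessel types, held 46178, 55529, 60067 and 51267 CPM in capillaries and 53033, 46637, 54549.8 and 47571 CPM in venules, and its log2 fold change was 0.08 (edgeR adjusted p = 0.752, SE 0.124). The injury-linked miR-21a-5p had 0.15 (edgeR adjusted p = 0.73, SE 0.213). Of the Hox cluster miRNAs, which mark body position, edgeR called 0 of 7 tested (1 at an unadjusted p under 0.05) and DESeq2 0, with shares of 1.8% to 2.26% in capillaries and 1.25% to 1.71% in venules that did not overlap. In the miR-17-92 cluster, tied to cell division, edgeR called 0 of 7 (1 at an unadjusted p under 0.05) and DESeq2 1 lower. Without mouse 3 its member miR-92a-3p passed in edgeR, with a log2 fold change of -0.87 (adjusted p = 0.0405). In the miR-29 family, which restrains collagen genes, edgeR called 0 of 3 (1 at an unadjusted p under 0.05) and DESeq2 0. For inflammation (7 tested) and injury (4), edgeR called 0, with 0 at an unadjusted p under 0.05, and DESeq2 called 1 lower in each. Of 2 epidermal miRNAs edgeR called 0 (1 at an unadjusted p under 0.05) and DESeq2 1 higher, miR-203-3p (adjusted p = 0.0143). miR-203-3p also passed in edgeR with RLE size factors (adjusted p = 0.0491), with the filter set on the 8 compared libraries (0.0142) and in those 8 alone (0.043). Of the neuronal and endocrine list (3) edgeR called 0 (1 at an unadjusted p under 0.05) and DESeq2 0. For the miR-322 cluster (5), for miR-320, miR-423 and miR-744 (4), and for the striated muscle (2), miR-26 (2) and hepatocyte (1) lists, both tools called 0, with 0 at an unadjusted p under 0.05 in edgeR.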
